A study of Mus musculus with 16 samples.

Results

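Interferon regulatory factors (IRFs) were followed across thymocytes that met, or did not meet, a peptide in culture. The members were Irf1, Irf2, Irf3, Irf4, Irf5, Irf7, Irf8 and Irf9. Every probe set whose platform annotation named 1 of these 8 genes and no other was taken, whatever its values. This gave 9 probe sets, of 12422 tested, for 7 of the 8 genes. Irf2 had no such probe set and is not analysed here. Irf3 and Irf7 had 2 probe sets each, and the brighter one is meant unless the dimmer is named.

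The 16 arrays held total RNA of CD4+CD8+ mouse thymocytes. They came from fetal thymic organ culture, in which thymus lobes of fetal mice mature outside the animal. The 6 groups were BDC2.5 transgenic thymocytes on the B6g7 background at 16 h of peptide (n = 3), the same without peptide (n = 3), BDC2.5 transgenic thymocytes on the NOD background at 16 h of peptide (n = 3), the same without peptide (n = 3), wild-type NOD (n = 2) and wild-type B6g7 (n = 2). BDC2.5 is a rearranged T cell receptor transgene from a diabetogenic clone, NOD is a diabetes-prone strain, and B6g7 denotes a B6 background that carries the NOD class II molecule. Peptide sequence, dose and age of the fetal mice are not in the labels, which also do not say that arrays of a group came from separate animals, so p-values measure only the spread between these arrays. RNA was pooled over many cells, so fewer cells of a type and less RNA per cell cannot be told apart.

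IRFs bind DNA through a shared N-terminal domain and switch on or restrain genes of innate immunity and lymphocyte development. Irf3 and Irf7 are activated by kinases downstream of nucleic acid sensors and drive type I interferon genes. Irf9 is the DNA-binding subunit of the complex formed after type I interferon binds its receptor. Irf1 and Irf7 are themselves induced by interferons. Irf4 stands apart, being induced by antigen receptor signals through NF-kB and related factors, and Irf8, its closest relative, serves B cells and myeloid cells. Antigen receptor signalling in double-positive thymocytes decides between survival and deletion, and strong signals lead to negative selection.

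Each value below is the authors' probe set intensity, which has no absolute unit and cannot be set against that of another probe set. Differences are log2 differences with the standard error (SE) of the limma fit, and a probe set was called at a Benjamini-Hochberg adjusted p under 0.05 over all 12422 probe sets, two-sided. The number of arrays limits the precision.

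Some markers of double-positive thymocytes read above the array medians, which were at most 59.1. Cd8a lay between 1074 and 5146, Rag1, which cuts receptor genes for rearrangement, between 543 and 4745, and Cd4 between 158 and 327 over the 16 arrays. Pooled RNA does not show that the same cells carried both coreceptors, so the label itself was not tested. Other markers of the list, Cd8b1 and Cd3g, differed between strains, as given below. A subset of arrays stood apart from the rest. The 6 arrays numbered 3 in the BDC2.5 groups or 2 in the wild-type groups, called the third-number arrays here, had beta-actin 3′ minus 5′ values of 1.36 to 1.96 on the log2 scale. That measure of RNA integrity and labelling lay between 2.24 and 3.27 on the other 10 arrays. The third-number array of the B6g7 group at 16 h of peptide departed most for this family. Among all genes, Irf8 had the fourth largest excess there over the other 2 arrays of its group, and Irf1 ranked at 35 and Irf7 at 151 of 12422. The gene in first place was Xist, the RNA of the inactive X chromosome, at 1584 there, against 223 and 12.9. It ranged from 12.9 to 1815 over the 16 arrays and was lowest on array 2 of that group, so it does not mark the third-number array alone. It was also low on array 1 of NOD at 16 h (18.3), of wild-type NOD (16.2) and of wild-type B6g7 (15.4). The third-number arrays of the wild-type groups read 1028 in NOD and 446 in B6g7. Sex of the mice is not in the labels, and its part in the differences below was not tested. After Xist in that ranking came Iigp1 and Gbp2, both interferon-induced GTPases. Results that rest on these arrays are given with and without them.

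**Figure D1:**
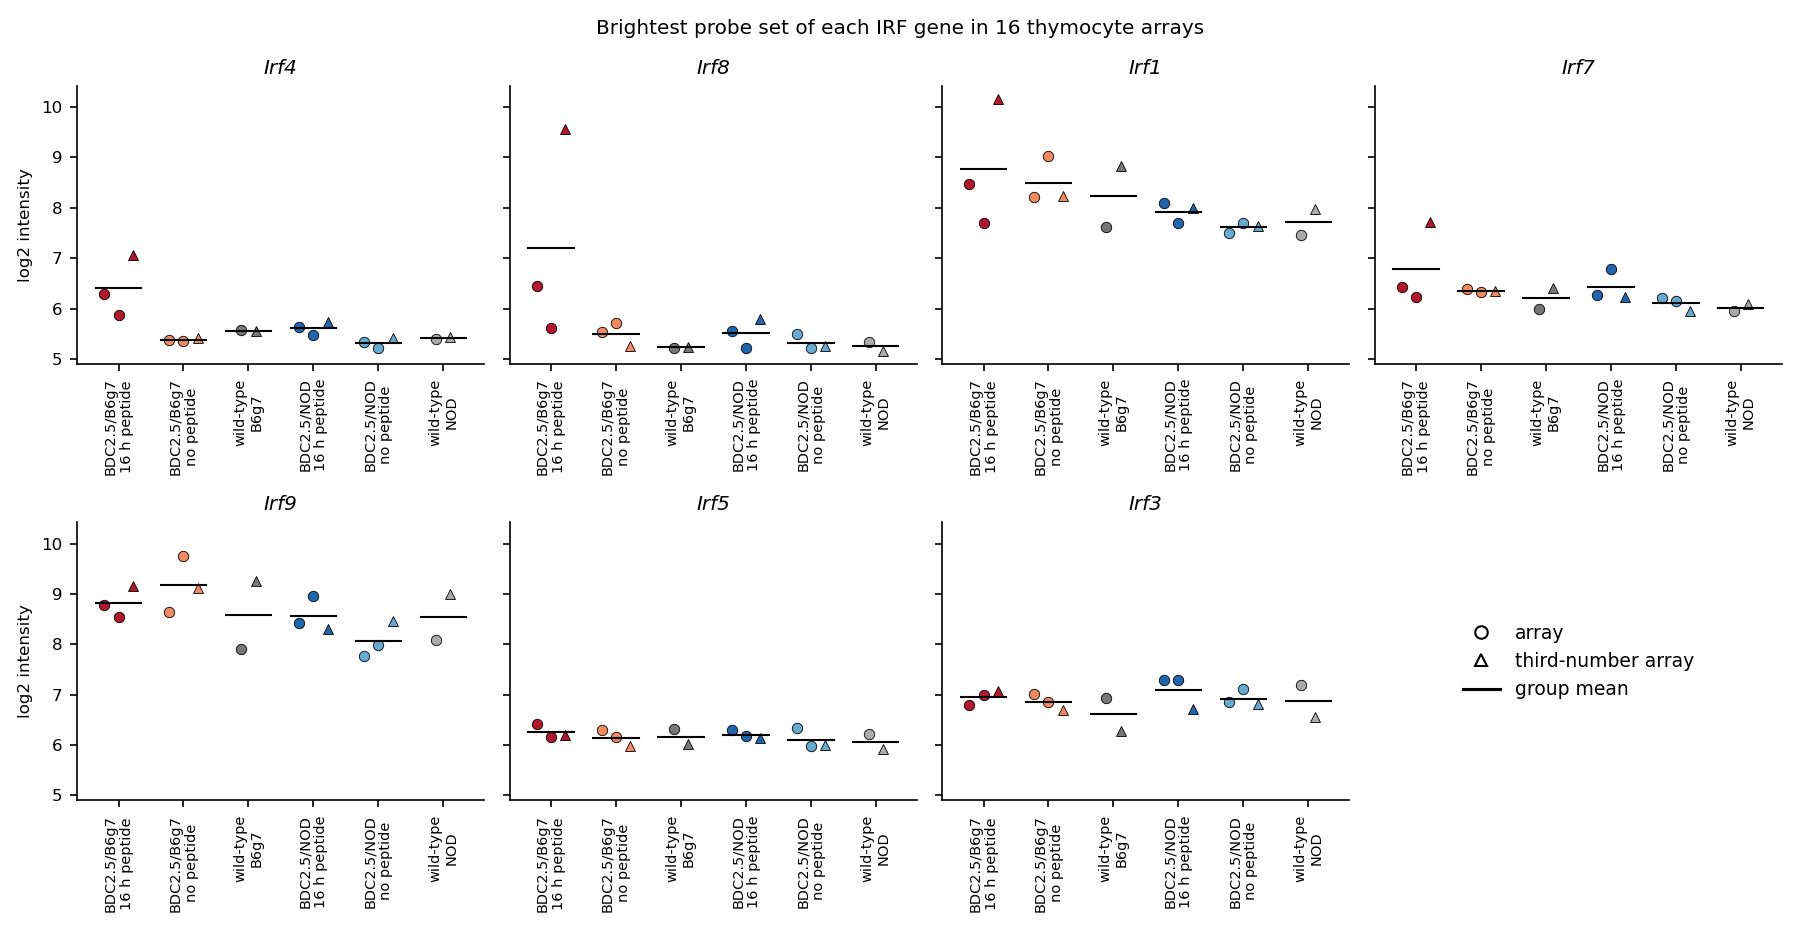
Log2 intensity of the brightest probe set of each IRF gene on each of the 16 arrays, with 1 point per array, the 6 groups side by side, a line at each group mean and triangles for the third-number arrays. Irf4 stood higher in all 3 arrays of B6g7 cells at 16 h of peptide than in any other array, while Irf1 and Irf7 stood high there on the third-number array. Irf8 stood highest on that array, and on array 1 of the group it also exceeded every array of the other groups.

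The start regions of 3 members are shown because they carry, or lack, the letters of an interferon-response motif. The sequences and the build (GRCm38.p6) are from RefSeq, and each runs 5′ to 3′ on the plus strand from 250 bases before a start of the gene to 50 after it. Capitals mark TTCNNNGAA, the palindromic gamma-activated site (GAS), which reads the same on both strands.
Irf4, chr13:30748983-30749282: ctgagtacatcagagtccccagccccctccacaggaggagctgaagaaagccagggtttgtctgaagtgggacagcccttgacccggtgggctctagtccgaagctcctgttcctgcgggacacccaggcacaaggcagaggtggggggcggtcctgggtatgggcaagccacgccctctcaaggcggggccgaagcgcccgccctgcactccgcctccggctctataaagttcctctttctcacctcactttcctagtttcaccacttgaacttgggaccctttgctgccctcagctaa
Irf8, chr8:120736108-120736407: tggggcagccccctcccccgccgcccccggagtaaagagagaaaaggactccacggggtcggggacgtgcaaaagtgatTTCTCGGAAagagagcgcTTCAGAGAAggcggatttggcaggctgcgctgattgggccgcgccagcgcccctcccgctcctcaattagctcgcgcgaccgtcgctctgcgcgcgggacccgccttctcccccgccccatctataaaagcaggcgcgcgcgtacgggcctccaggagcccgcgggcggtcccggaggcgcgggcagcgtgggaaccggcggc
Irf1, chr11:53769764-53770063: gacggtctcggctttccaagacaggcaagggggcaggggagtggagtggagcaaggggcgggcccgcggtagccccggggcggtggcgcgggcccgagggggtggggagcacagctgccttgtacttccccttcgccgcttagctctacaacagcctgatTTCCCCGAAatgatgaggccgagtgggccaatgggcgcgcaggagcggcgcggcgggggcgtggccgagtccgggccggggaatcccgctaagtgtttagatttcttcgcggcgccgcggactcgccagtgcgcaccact
Irf8 held 2 such matches, TTCTCGGAA at -171 to -163 and TTCAGAGAA at -153 to -145 from the start. Irf1 held 1, TTCCCCGAA at -90 to -82. RefSeq gave 2 start windows each for Irf1, Irf8 and Irf9, of which the first is shown for Irf8 and Irf1. The other window of these genes held no motif of those searched. Irf4 held none of the motifs searched. These were GAS, the interferon-stimulated response element as GAAA and GAAA with any 2 bases between them, the kB site, and the AP-1 site as TGACTCA. The last 3 were searched on both strands. The kB site was searched only in fixed spellings that allow no variable base. No IRF window held any of the last 3 as searched. Other spellings of the kB site were not searched. Absence of a kB site from these windows, that of Irf1 included, is therefore not shown. Of 32851 mouse promoters of the same length, 8.3% held GAS, 3.44% the response element, 0.244% a kB site in the spellings searched and 5.2% an AP-1 site. A match is a run of letters and not a bound site.

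None of the 9 IRF probe sets was called in any of the 9 comparisons with limma. In the same comparisons, 0.00805% of all probe sets were called for the peptide response in B6g7, 0% for that in NOD and 0.0242% for their mean. The share was 0% for the strain difference of the response, 0.266% for the strain difference without peptide, 0.491% for that at 16 h, 0.0886% for that in wild-type cells, 0.0805% for the transgene difference in B6g7 and 0.0564% for that in NOD. The members' count of 0 is therefore close to the background, and all differences below are given as values. At an unadjusted p under 0.05 the limma fit held 2 of the 9 for the peptide response in B6g7 (Irf4 and Irf8, beside 3.4% of all probe sets), 0 for that in NOD (1.67%) and 1 for their mean (Irf4, 3.58%). It held 1 for the strain difference of the response (Irf4, 1.18%), 1 for the strain difference without peptide (Irf9, 3.45%) and 2 for that at 16 h (Irf4 and Irf8, 5.68%). It held 0 for the strain difference in wild-type cells (2.09%), 0 for the transgene difference in B6g7 (1.49%) and 0 for that in NOD (2%).

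Irf4, the antigen-receptor-induced member, was highest in B6g7 cells that had met peptide. Its intensities there were 77.9, 58.7 and 134, against 41.3, 40.8 and 43.0 in B6g7 cells without peptide. All 3 peptide arrays exceeded all 3 arrays without peptide. The log2 difference was 1.03 ± 0.21 (SE, 95% interval 0.57 to 1.48), a 2.04-fold higher level. It ranked 10 of 12422 by p, with an adjusted p of 0.335 by limma, so it was not called. Without the third-number array of the peptide group, an alternative added once the data had been seen, the difference was 0.70 ± 0.13 with an adjusted p of 0.293. Without peptide array 2, the lowest of the group, it was 1.29 ± 0.18 and was called (adjusted p = 0.0255). Over all alternatives tried, the Irf4 difference lay between 0.70 and 1.29, with adjusted p between 0.0255 and 1.0.

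In NOD cells Irf4 was 49.3, 44.3 and 53.2 at 16 h of peptide, against 40.5, 37.3 and 42.7 without peptide. The groups did not overlap here either. The difference was 0.28 ± 0.21 on the log2 scale (95% interval -0.17 to 0.74, adjusted p = 1.0 by limma). By array number, the differences in NOD cells were 0.28, 0.25 and 0.32, and those in B6g7 cells 0.92, 0.53 and 1.64. Each of the 6 was above 0, and the smallest B6g7 value exceeded the largest NOD value. The NOD response minus the B6g7 response of Irf4 was -0.74 ± 0.30 (adjusted p = 1.0 by limma). Over all alternatives that value lay between -1.01 and -0.42, the smallest being without the third-number B6g7 peptide array. Averaged over both strains, the response was 0.66 ± 0.15 (adjusted p = 0.407), and 0.79 ± 0.12 without B6g7 peptide array 2, when it was called (adjusted p = 0.0417). The range over all alternatives of this mean was 0.49 to 0.79, with adjusted p between 0.0417 and 1.0.

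Irf4 also differed in range between the strains at 16 h of peptide. At 16 h of peptide it was 44.3 to 53.2 in NOD cells, against 58.7 to 134 in B6g7 cells, a log2 difference of -0.80 ± 0.21 (95% interval -1.25 to -0.35, adjusted p = 0.216 by limma). With the replicate number as a block the difference was -0.80 ± 0.17 and was called, with an adjusted p of 0.0447. That block also grouped wild-type arrays with BDC2.5 arrays of the same number, which the numbers were not found to pair. It was also called with the third-number arrays as a batch term (-0.80 ± 0.18, adjusted p = 0.0429) and without B6g7 peptide array 2 (-1.07 ± 0.18, adjusted p = 0.0243). Leaving out the third-number arrays gave -0.53 ± 0.17 with an adjusted p of 0.53, and leaving out only the B6g7 one gave -0.47 ± 0.13 with an adjusted p of 0.358. Under every alternative tried Irf4 was lower in NOD at 16 h, with differences of -1.07 to -0.47 and adjusted p between 0.0243 and 0.669. Without peptide the strains were alike in range, at 37.3 to 42.7 in NOD and 40.8 to 43.0 in B6g7 cells, with a log2 difference of -0.06 ± 0.21 (95% interval -0.51 to 0.40). Marker lists differed between the strains at 16 h too. Of 25 myeloid and dendritic cell markers, 21 were lower and 4 higher in NOD (median -0.18), with 0 called by limma. Of 12 double-positive thymocyte markers, 11 were higher and 1 lower in NOD (median 0.40), and the lower one, the coreceptor chain gene Cd8b1, was called (-2.02 ± 0.36, adjusted p = 0.0247 by limma). Their part in the strain difference of Irf4 and Irf8 was not tested.

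Across the 6 groups, log2 Irf4 was ordered as B6g7 at 16 h (6.41 ± 0.61, SD, n = 3), NOD at 16 h (5.61 ± 0.13, n = 3), wild-type B6g7 (5.56 ± 0.01, n = 2), wild-type NOD (5.42 ± 0.02, n = 2), B6g7 without peptide (5.38 ± 0.04, n = 3) and NOD without peptide (5.33 ± 0.10, n = 3). The arrays of B6g7 at 16 h did not overlap those of NOD at 16 h, and those of wild-type B6g7 did not overlap those of wild-type NOD, while every other neighbouring pair overlapped. Outside the B6g7 peptide group, Irf4 stayed between 37.3 and 53.2 (median 43.0) on 13 arrays. It lay above its own array's median intensity on 3 of 16 arrays, those of B6g7 cells at 16 h of peptide.

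**Figure D2:**
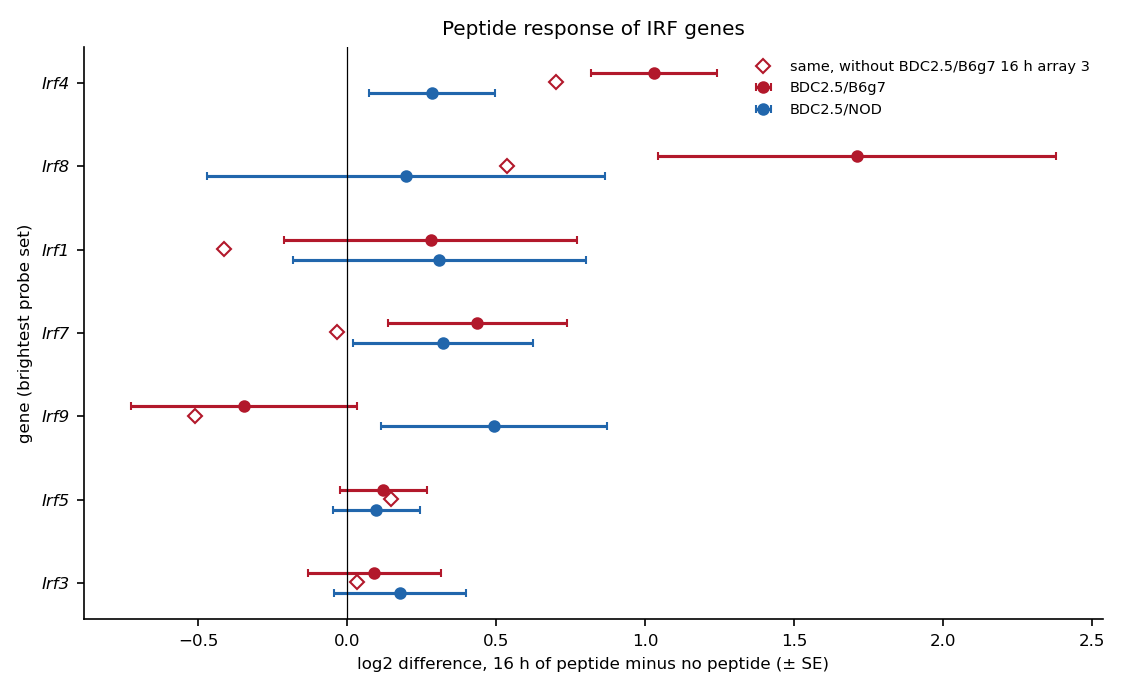
Log2 difference between 16 h of peptide and no peptide for the brightest probe set of each IRF gene in B6g7 and in NOD cells. Bars are SE, and open diamonds are the B6g7 values without the third-number array of the peptide group. Irf4 stayed above 0 in both B6g7 values (1.03 and 0.70), whereas Irf1 (0.28 and -0.41) and Irf7 (0.44 and -0.03) did not.

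Irf8, the relative of Irf4 used by B cells and myeloid cells, had the widest range of the family, 21.2-fold between its highest and lowest array. It was 87.4, 49.0 and 755 in B6g7 cells at 16 h of peptide, against 46.1, 52.4 and 38.1 without peptide. The array at 755 was the third-number one, and array 2 lay within the no-peptide range. The log2 difference was 1.71 ± 0.67 (adjusted p = 1.0 by limma), and 0.54 ± 0.23 without that array (adjusted p = 0.999). In NOD cells Irf8 was 46.8, 37.4 and 55.6 at 16 h of peptide, against 45.2, 37.2 and 38.2 without peptide, a difference of 0.20 ± 0.67. Without the third-number arrays that difference was 0.03. Outside the B6g7 peptide group it stayed between 35.6 and 55.6 on 13 arrays. It exceeded its array's median intensity on arrays 1 and 3 of B6g7 and array 3 of NOD at 16 h of peptide. At 16 h the strain difference of Irf8, NOD minus B6g7, was -1.69 ± 0.67 (adjusted p = 0.72), and -0.51 ± 0.23 without the third-number B6g7 array, beside the marker differences given for Irf4.

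Markers of other cells were uneven on that same array. The summed intensity of 25 measured myeloid and dendritic cell markers, of 26 listed, was 1767 to 2711 in B6g7 cells at 16 h of peptide, against 1628 to 1785 without peptide, and 2711 was the third-number array. The protease Ctss read 697 there, against 169 and 159 on the other arrays of the group, and the chemokine Ccl17 read 181, against 78.4 and 58.5. The defining markers Csf1r and Itgam spanned 35.5 to 47.9 and 23.8 to 29.9 over all 16 arrays. Of the 25 markers, 19 were higher and 6 lower with peptide in B6g7 (median 0.19), and 9 higher and 16 lower in NOD (median -0.05), with 0 called by limma. The part of such cells in the Irf8 values was not tested. Lists of B cell, NK cell, thymic epithelial, mesenchymal and erythroid markers had median peptide differences between -0.13 and 0.08 in both strains, with none called. Of 12 measured markers of double-positive thymocytes, of 16 listed, 9 were lower with peptide in B6g7 (median -0.35) and 7 in NOD (median -0.25), none of them called.

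Irf1 is a transcription factor induced by interferon gamma and needed for CD8 T cell development. In B6g7 cells it was 355, 208 and 1149 at 16 h of peptide, against 299, 525 and 302 without peptide. The groups overlapped, with array 2 below and the third-number array above every array without peptide. The log2 difference was 0.28 ± 0.49 (95% interval -0.78 to 1.34), and -0.41 ± 0.37 without the third-number array. In NOD cells Irf1 was 273, 207 and 254 at 16 h of peptide, against 181, 208 and 200 without peptide, a difference of 0.31 ± 0.49.

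Irf7, the interferon-induced amplifier of the type I response, followed the same lines in B6g7. It was 85.6, 74.6 and 212 at 16 h of peptide, against 83.9, 80.0 and 81.5 without peptide. Only the third-number array stood clearly above the narrow no-peptide range. The log2 difference of 0.44 ± 0.30 became -0.03 ± 0.18 without that array. In NOD cells Irf7 was 77.7, 110 and 75.1 at 16 h of peptide, against 74.5, 71.5 and 61.9 without peptide, and the groups did not overlap. That difference was 0.32 ± 0.30 (adjusted p = 1.0 by limma). The dimmer Irf7 probe set gave 0.09 ± 0.17 in B6g7 and 0.15 ± 0.17 in NOD, and did not read above 76.9 in either B6g7 group.

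Irf9 had fitted peptide differences of opposite sign in the strains. In B6g7 cells it was 441, 372 and 568 at 16 h of peptide, against 402, 860 and 556 without peptide, a log2 difference of -0.35 ± 0.38. In NOD cells it was 344, 495 and 316 at 16 h of peptide, against 217, 254 and 350 without peptide, a difference of 0.49 ± 0.38. Neither pair of groups was free of overlap. By array number, the differences in B6g7 cells were 0.13, -1.21 and 0.03, so the negative mean came from array 2, and those in NOD cells were 0.66, 0.96 and -0.15. Without no-peptide array 2 the B6g7 difference was -0.06 ± 0.40, and over all alternatives it lay between -0.61 and -0.06. The NOD response minus the B6g7 response was 0.84 ± 0.54 (adjusted p = 1.0 by limma), so the 2 responses were not shown to differ.

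For Irf5, which acts downstream of Toll-like receptors in myeloid and B cells, the whole range over 16 arrays was 1.41-fold. It was 85.2, 71.8 and 74.0 in B6g7 cells at 16 h of peptide, against 78.5, 71.3 and 62.9 without peptide, a log2 difference of 0.12 ± 0.15. In NOD cells the difference was 0.10 ± 0.15. Irf3, which is present before any signal and is activated by phosphorylation, varied 2.01-fold. Its differences were 0.09 ± 0.22 in B6g7 and 0.18 ± 0.22 in NOD, and those of its dimmer probe set -0.03 ± 0.24 and -0.08 ± 0.24. That probe set exceeded its array's median intensity on 0 of 16 arrays. Activation of Irf3 and Irf5 is a change of the protein, which these arrays do not read.

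Taking the 9 probe sets as a list, 7 were higher and 2 lower with peptide in B6g7 cells (median log2 difference 0.12, against -0.01 over all probe sets). In NOD cells 8 were higher and 1 lower (median 0.20, against -0.02). Without the third-number arrays the count in B6g7 was 3 higher and 6 lower (median -0.01), while that in NOD was 7 higher and 2 lower (median 0.27). In B6g7, 1 of the 9, Irf4, had peptide arrays wholly above those without peptide, beside 3.48% of all probe sets, and none was wholly below, beside 3.03%. In NOD it was 2 of the 9 above, Irf4 and Irf7, beside 2.33%, and none below, beside 3.2%.

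Without peptide, Irf9 and Irf1 read lower on the NOD arrays than on the B6g7 arrays, and neither was called. Irf9 was 217, 254 and 350 in NOD, against 402, 860 and 556 in B6g7. All 3 NOD arrays lay below all 3 B6g7 arrays. The log2 difference was -1.11 ± 0.38 (95% interval -1.92 to -0.29, adjusted p = 0.846 by limma), and -1.33 ± 0.33 without the third-number arrays (adjusted p = 0.264). Irf1 was 181, 208 and 200 in NOD, against 299, 525 and 302 in B6g7, again without overlap, and the difference was -0.88 ± 0.49 (adjusted p = 1.0 by limma). It was -1.03 ± 0.32 without the third-number arrays (adjusted p = 0.509). Over all alternatives Irf9 lay between -1.37 and -0.82 and Irf1 between -1.03 and -0.61. The smallest differences were those without B6g7 array 2, the highest of its group for both genes. Among double-positive markers, Cd3g was higher in NOD here and called (1.17 ± 0.22, adjusted p = 0.0459 by limma). Cd8b1 was lower but not called (-1.89 ± 0.36, adjusted p = 0.0519). Their part in these differences was not tested.

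Irf7 was 74.5, 71.5 and 61.9 in NOD cells without peptide, against 83.9, 80.0 and 81.5 in B6g7 cells, a difference of -0.24 ± 0.30. These groups did not overlap either. Over the 9 probe sets, 7 were lower in NOD and 2 higher (median -0.16, against 0.03 over all probe sets). The 3 that were lower without overlap stood beside 2.37% of all probe sets, and none was higher without overlap, beside 3.24%.

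At 16 h of peptide the interferon-induced members still had lower fitted values in NOD: -0.85 ± 0.49 for Irf1, -0.36 ± 0.30 for Irf7 and -0.26 ± 0.38 for Irf9. All 3 values were lowered by the third-number B6g7 array, and only that of Irf7 changed sign when it was left out. Without it, Irf1 was -0.16 ± 0.37, Irf7 0.11 ± 0.18 and Irf9 -0.10 ± 0.43. Without all third-number arrays Irf7 was 0.21 ± 0.20, the reverse of its sign on all arrays, and Irf9 was 0.03 ± 0.33. Over the 9 probe sets, 7 were lower and 2 higher in NOD at 16 h (median -0.26, against 0.01). Irf4 was the 1 lower without overlap, beside 5.39% of all probe sets, and none was higher without overlap, beside 6.45%.

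In wild-type cells, which lack the transgene, the strain order of Irf1 and Irf9 could not be read from 2 arrays a group. The labels give no peptide time for these cells. Irf1 was 177 and 252 in wild-type NOD, against 197 and 458 in wild-type B6g7. Irf9 was 271 and 513 in wild-type NOD, against 242 and 608 in wild-type B6g7. In each group the higher array was the third-number one, so the spread within a group exceeded the difference between groups. The differences were -0.51 ± 0.60 for Irf1 and -0.04 ± 0.46 for Irf9. By array number they were -0.15 and -0.86 for Irf1, lower in NOD both times, and 0.17 and -0.25 for Irf9. Irf4 was 42.4 and 43.1 in wild-type NOD, against 47.5 and 46.8 in wild-type B6g7, without overlap but with a difference of -0.14 ± 0.26. The dimmer Irf7 probe set was the other of 2 that were lower without overlap, beside 14.3% of all probe sets, and none was higher, beside 6.55%.

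**Figure D3:**
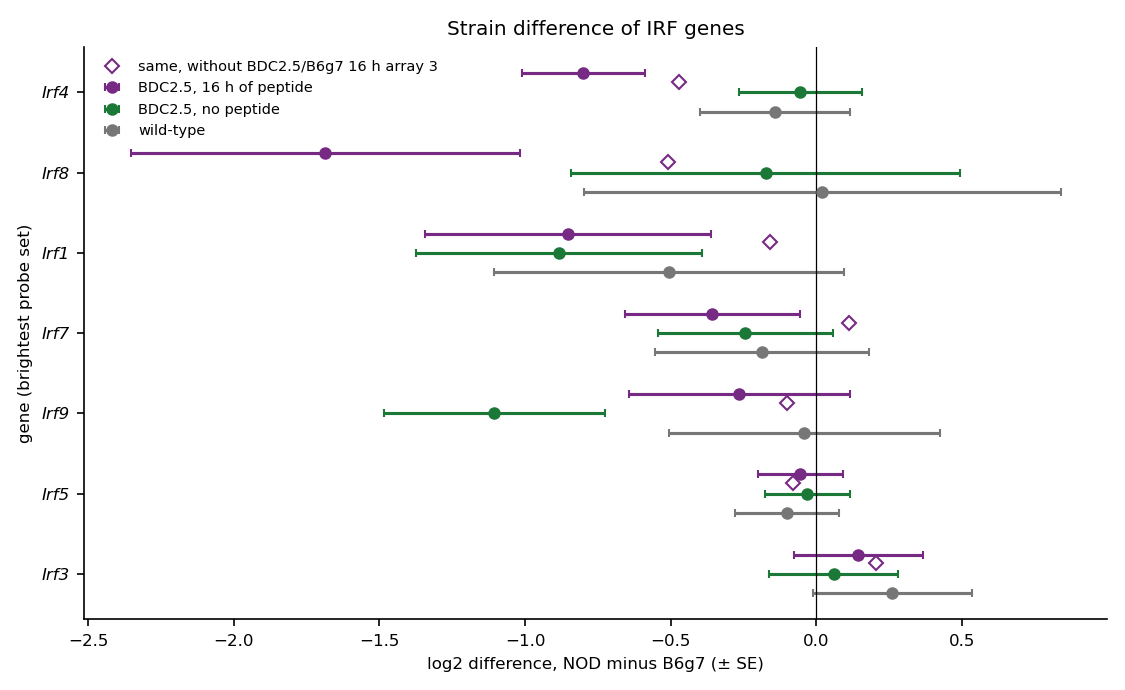
Log2 difference between NOD and B6g7 cells for the brightest probe set of each IRF gene in BDC2.5 cells at 16 h of peptide, in BDC2.5 cells without peptide and in wild-type cells. Bars are SE, and open diamonds are the 16 h values without the third-number B6g7 array. Irf9 (-1.11) and Irf1 (-0.88) were lower in NOD without peptide, and Irf4 (-0.80) at 16 h of peptide.

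Against wild-type cells of the same strain, BDC2.5 cells without peptide had an Irf9 difference of 0.59 ± 0.42 in B6g7 and -0.48 ± 0.42 in NOD. The Irf1 differences were 0.27 ± 0.55 in B6g7 and -0.11 ± 0.55 in NOD. Without the third-number arrays Irf9 was 1.28 ± 0.41 in B6g7 and -0.21 ± 0.41 in NOD, and Irf1 was 1.01 ± 0.39 in B6g7, each then resting on 1 wild-type array whose spread was assumed to be that of the other groups. Irf4 was lower in BDC2.5/B6g7 (40.8 to 43.0) than in wild-type B6g7 (46.8 and 47.5) without overlap, with a difference of -0.18 ± 0.24. Irf8 was higher there without overlap, at 38.1 to 52.4 against 37.2 and 37.8, with a difference of 0.27 ± 0.75. These single probe sets stood beside 6.91% of all that were lower and 4.15% that were higher without overlap. In NOD none of the 9 was free of overlap, beside 6.19% of all probe sets that were higher and 2.52% that were lower.

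Interferon-stimulated genes, among them targets of Irf9, were read from a list of 55, of which 41 were measured. With peptide in B6g7 cells 29 were higher and 12 lower (median 0.13), and without the third-number array of the peptide group 8 were higher and 33 lower (median -0.31). With peptide in NOD cells 36 were higher and 5 lower (median 0.26), and 38 and 3 without the third-number arrays (median 0.36). None of the 41 was called in either strain. Averaged over strains, the smallest p-values belonged to Ifi35 (0.63 ± 0.27), the nuclease Samhd1 (0.75 ± 0.35), the exonuclease Isg20 (0.73 ± 0.34) and the chemokine Cxcl10 (0.28 ± 0.16), all with adjusted p of 0.998 by limma.

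The summed intensity of these 41 genes was 11061, 9817 and 23788 in B6g7 cells at 16 h of peptide, against 12619, 14183 and 12495 without peptide. The value of 23788 was the third-number array, and the other 2 peptide arrays lay below all 3 arrays without peptide. In NOD cells the sum was 10064 to 11240 at 16 h of peptide, against 8704 to 10277 without peptide. Without peptide, 36 of the 41 genes were lower in NOD and 5 higher (median -0.44), with 0 called, beside 0.266% of all probe sets. Without overlap, 18 were lower, beside 2.37% of all probe sets, and 2 higher, beside 3.24%. Trim21, an antibody receptor and ubiquitin ligase, was -1.30 ± 0.41, and the GTPase Irgm2 -1.39 ± 0.55. Ifi204, a DNA sensor, went the other way at 1.76 ± 0.47 (adjusted p = 0.31). It was the 1 gene of the list called without the third-number arrays (1.67 ± 0.25, adjusted p = 0.0289 by limma), where 0.25% of all probe sets were called.

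**Figure D4:**
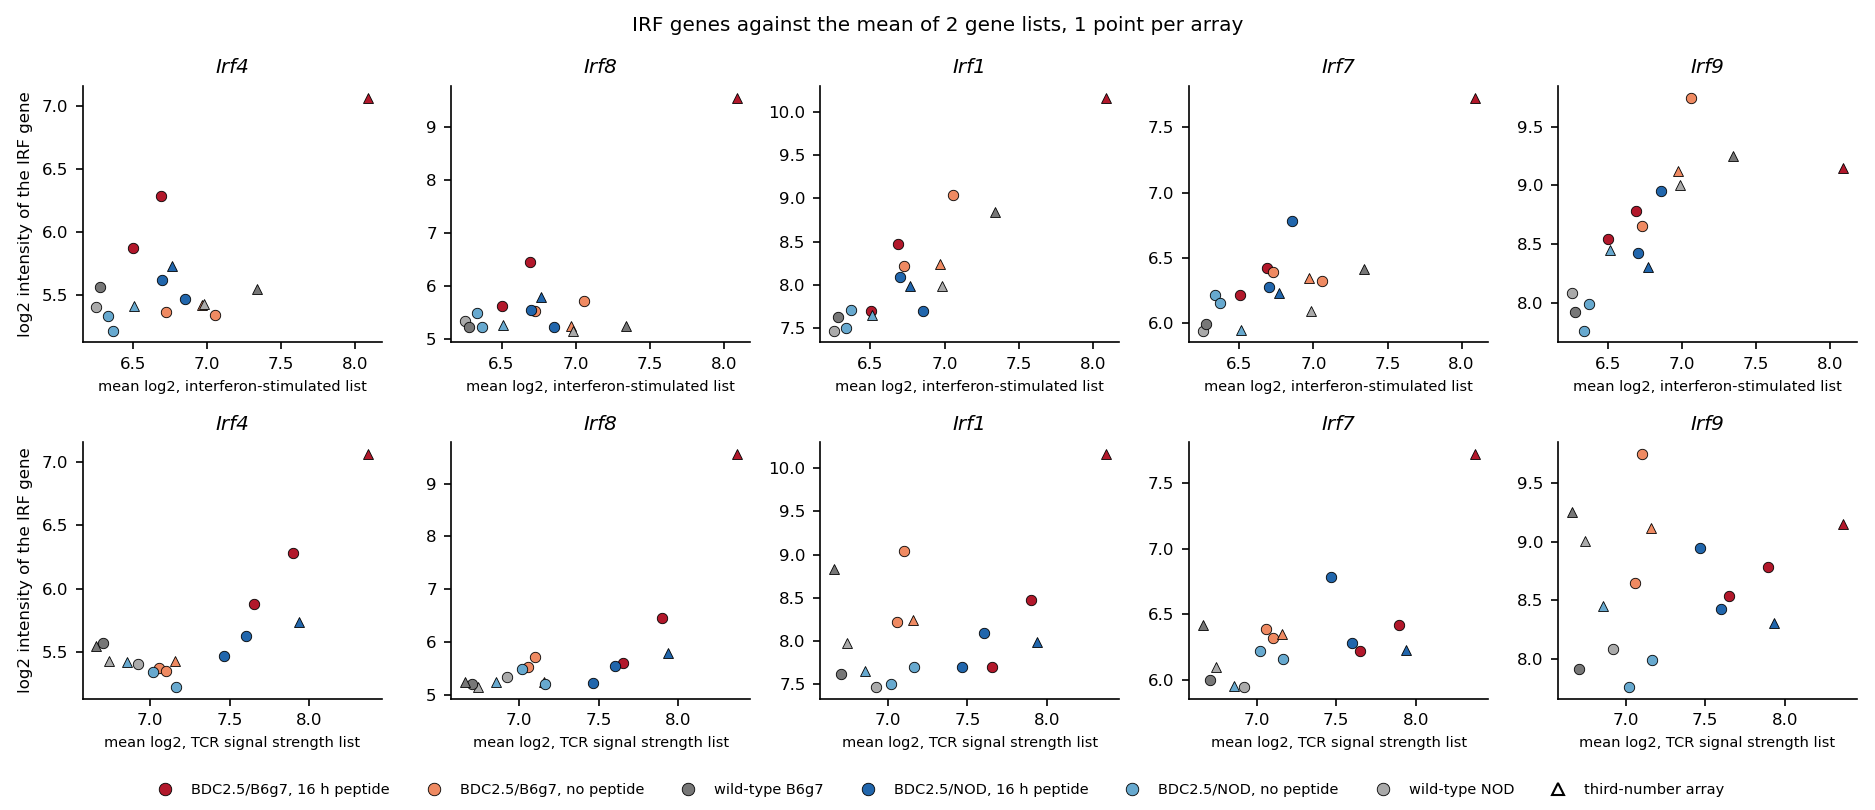
Log2 intensity of 5 IRF genes against the mean log2 of the 41 interferon-stimulated genes or the 18 T cell receptor response genes, with 1 point per array coloured by group and triangles for the third-number arrays. Outside the third-number set, Irf1, Irf9 and Irf7 rose with the interferon-stimulated mean (r of 0.82, 0.94 and 0.75). Irf4, Irf8 and, less so, Irf7 rose with the receptor response mean (0.74, 0.65 and 0.55).

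Across the 16 arrays, Irf1, Irf9 and Irf7 went with the mean of the interferon-stimulated list, and Irf4 did not once the extreme arrays were set aside. These correlations are descriptions. The points share strain, peptide and array set. Pearson's r with the interferon-stimulated mean was 0.92 for Irf1, 0.75 for Irf9, 0.84 for Irf7, 0.72 for Irf8 and 0.64 for Irf4 (n = 16). The 2 arrays farthest out in that mean were the third-number ones of B6g7 at 16 h and of wild-type B6g7. Without them r was 0.75 for Irf1, 0.90 for Irf9, 0.55 for Irf7, 0.14 for Irf8 and 0.04 for Irf4 (n = 14). On the 10 arrays outside the third-number set it was 0.82 for Irf1, 0.94 for Irf9, 0.75 for Irf7, 0.37 for Irf8 and 0.10 for Irf4. With the mean of 18 T cell receptor response genes, r on those 10 arrays was 0.74 for Irf4, 0.65 for Irf8, 0.55 for Irf7, 0.36 for Irf9 and 0.28 for Irf1. By rank over all 16 arrays, Irf4 did not stand out. Spearman's rho with that mean was 0.51 for Irf4, 0.72 for Irf8, 0.51 for Irf7, 0.08 for Irf9 and 0.36 for Irf1. Irf3 and Irf5 had r of -0.25 and -0.21 with the interferon-stimulated mean on 16 arrays, and -0.01 each on those 10. Among members, Irf4 and Irf8 had r of 0.92 on all arrays and 0.79 on those 10, and Irf1 and Irf9 had 0.71 and 0.84.

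The 18 measured genes of the receptor response list, of 20, were all higher with peptide in B6g7 cells (median 0.84), and 16 of 18 in NOD cells (median 0.48). In the mean response over both strains, 2 were called and rose: Itm2a, a membrane protein of selected thymocytes (1.74 ± 0.22, adjusted p = 0.0136 by limma), and the nuclear receptor Nr4a1, an immediate target of receptor signals (1.87 ± 0.25, adjusted p = 0.0138). Without the third-number arrays Itm2a was called and Nr4a1 was not. Nr4a1 was 1136, 854 and 1759 in B6g7 cells at 16 h of peptide, against 332, 256 and 236 without peptide. In NOD cells it was 495, 398 and 847 at 16 h of peptide, against 174, 279 and 124 without peptide. As with Irf4, neither strain's groups overlapped for Nr4a1.

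Of 21 listed inducers and partners of Irf4, 18 were measured, and with peptide in B6g7 cells 10 were higher and 8 lower (median 0.02). None was called in the mean response. The NF-kB subunits Relb and Nfkb2 had mean responses of 0.71 ± 0.17 (adjusted p = 0.451) and 0.72 ± 0.17 (adjusted p = 0.444). Relb was 168, 135 and 292 in B6g7 cells at 16 h of peptide, against 114, 94.6 and 76.4 without peptide, with no overlap. In NOD cells Relb was 111, 117 and 111 at 16 h, against 93.3, 89.3 and 73.7. Nfatc1, a calcium-activated factor, had a mean response of 1.11 ± 0.29 (adjusted p = 0.554). It was 218, 161 and 579 in B6g7 cells at 16 h, against 89.3, 102 and 105 without peptide. Batf, the partner with which Irf4 binds composite sites, had a mean response of 0.41 ± 0.17.

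Interferon receptors, their ligands and downstream signalling genes gave 15 measured genes of 18. With peptide, 9 were higher and 6 lower in B6g7 (median 0.04), and 6 higher and 9 lower in NOD (median -0.03), with none called. The ligands Ifng and Ifnb1 stayed dim. Ifng read 9.99 to 10.9 in B6g7 cells at 16 h, against 9.57 to 11.3 without peptide, and Ifnb1 18.5 to 19.7, against 17.0 to 19.1. On the third-number B6g7 peptide array Ifng was 10.7 and Ifnb1 18.5. Both read far below the array medians of 54.7 to 59.1, where a change may not be seen. These values therefore do not show that the ligands were unchanged. Ifna2, Ifna4 and Ifna11 were also measured and are in the counts above. Of 18 sensors and kinases upstream of Irf3 and Irf7, 7 were measured. Of these, 2 were higher and 5 lower with peptide in B6g7 (median -0.05), and 7 higher and 0 lower in NOD (median 0.08), none of them called. Irf2bp1, a corepressor that binds Irf2, was the 1 measured gene of 4 further family and IRF2-binding genes, with a mean response of -0.04 ± 0.09.

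The 5 genes whose brightest probe set followed Irf4 most closely over the 16 arrays were Pdcd1 (r = 0.95), Rcn1 (0.94), Nfatc1 (0.93), Hspa1a (0.93) and Samhd1 (0.93). Pdcd1 encodes the inhibitory receptor PD-1. On the 10 arrays outside the third-number set the 5 were Tnfsf11 (0.97), Pdcd1 (0.93), C1qa (0.92), Alcam (0.90) and Myc (0.90), so Pdcd1 was on both lists. Pdcd1 was 273, 103 and 478 in B6g7 cells at 16 h of peptide, against 75.1, 67.6 and 61.9 without peptide, and 103, 95.6 and 133 in NOD cells at 16 h, against 75.4, 63.8 and 63.6. It had the same order of arrays within the B6g7 peptide group as Irf4. Pdcd1 was picked by its correlation over these same arrays, so the shared order is not a separate result.

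For Irf7 the 5 closest genes were Isg20 (r = 0.92), H2-K2 (0.92), C1qtnf12 (0.90), the antiviral GTPase Mx1 (0.90) and Samhd1 (0.89). Outside the third-number set they were Isg20 (0.95), Mx1 (0.94), Ifi35 (0.93), Ifi27l2a (0.90) and Sel1l (0.88), and Isg20 and Mx1 stood on both lists. Isg20 was 269, 161 and 720 in B6g7 cells at 16 h of peptide, against 276, 210 and 207 without peptide, and 236, 396 and 176 in NOD cells at 16 h, against 170, 153 and 78.4. The arrays on which Irf7 read highest, the third-number one of B6g7 and array 2 of NOD at 16 h of peptide, were those on which Isg20 read highest in each group. Isg20 was likewise picked by its correlation over these arrays, so this is not a separate result.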

How the data were processed

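Total RNA of 16 thymocyte samples was read on Affymetrix mouse arrays, 1 per sample. The deposited table gave linear intensity values, 1 for every probe set on every array, and the authors had brought the arrays to a shared scale; the software, background correction and summary method are not given in the sources used here. Array median intensities lay between 54.7 and 59.1, a log2 range of 0.11, so the scale was kept. No pseudocount was added before taking log2.

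Of 12488 probe sets, 66 controls were left out. Of the 12422 tested, 10833 named 1 gene in the platform annotation, 396 several and 1193 none. Gene IDs of 10817 matched RefSeq, which changed 0 symbols. Each list used the brightest probe set of a gene.

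The test was the moderated statistic of limma 3.58.1 (R 4.3.3), with an intensity trend in eBayes, on all 16 arrays, with 1 mean per group, 10 residual and 3.60 prior degrees of freedom and Benjamini-Hochberg adjustment over all probe sets. The scripts were tested on simulated data. The named genes were all members, the 5 genes most correlated with Irf4 and with Irf7, up to 4 genes with the smallest p per list in the mean peptide response and in the strain difference without peptide, and Nr4a1, Egr2, Relb and Nfkb2. Any other gene was named with its values in view. The members and lists were chosen with earlier results of these data known.

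Replicate numbers were checked as pairs from the arrays' deviations from their group means. Same-numbered BDC2.5 arrays correlated at 0.249 to 0.639 for the peptide response in B6g7 and 0.581 to 0.793 for that in NOD. For the strain difference they correlated at 0.165 to 0.842 without peptide and 0.234 to 0.577 at 16 h. Every pair exceeded 0.1, so the numbers were treated as pairing the BDC2.5 arrays, although no label says what they mark. Differently numbered arrays were not compared, and the third-number arrays stood apart in their beta-actin values. The check therefore cannot tell pairing from a shared array set. The main fit had no block. Alternatives were a pseudocount of 16, quantile and median normalization, a filter on dim probe sets, only the compared groups in the fit, no intensity trend, the replicate block, the third-number arrays left out or as a batch term, and each array left out in turn.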

Additional observations from a re-analysis of the deposited data

Results flagged for a closer look

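For Irf9 the fitted peptide responses had opposite signs in the strains. Set against the mean of the no-peptide group, all 3 peptide arrays were higher in NOD and all 3 were lower in B6g7. Paired by array number, Irf9 was higher with peptide in 2 of 3 NOD pairs and lower in 1 of 3 B6g7 pairs, and the B6g7 mean without peptide was raised by array 2, at 860. The NOD response minus the B6g7 response was 0.84 ± 0.54 on the log2 scale (SE, adjusted p = 1.0 by limma), and 1.35 ± 0.47 without the third-number arrays.

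The transgene difference of Irf9, BDC2.5 without peptide minus wild-type, likewise had opposite signs. It was -0.48 ± 0.42 in NOD and 0.59 ± 0.42 in B6g7, and the NOD value minus the B6g7 value was -1.07 ± 0.60 (adjusted p = 1.0 by limma, a test added after seeing the data). The opposite signs rested on single wild-type arrays. Without wild-type B6g7 array 1 the Irf9 difference in B6g7 was -0.08 ± 0.47, and without wild-type NOD array 2 that in NOD was -0.01 ± 0.51. Both strains' wild-type arrays differed widely from each other for Irf9, at 271 and 513 in NOD and 242 and 608 in B6g7, and both comparisons use the same no-peptide arrays.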

How the results depend on the processing

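The probe set values were recomputed under 1260 combinations of probe set, comparison and alternative setting. In 104 of them the sign differed from that on all arrays. Of 360 combinations of a difference beyond 1 SE on all arrays, 33 came within 1 SE of 0 and 6 changed sign, 1 of these beyond 1 SE. In 5 combinations, all of Irf4, a difference became called. The count of called IRF probe sets, 0 in all 9 comparisons, became 1 for the strain difference at 16 h with the replicate block (129 called over all probe sets, against 61 without it) and with the third-number arrays as a batch term (144 called). Leaving out single arrays gave counts from 0 to 1 for the peptide response in B6g7, for the mean peptide response and for the strain difference at 16 h, each 1 being without B6g7 peptide array 2, the lowest Irf4 value of its group. With the replicate block the Irf4 peptide response in B6g7 had an adjusted p of 0.0769 by limma and the mean response 0.0875, and the block changed no other call. For transgene comparisons the numbers did not pair the arrays. The brighter Irf7 probe set reversed in the strain difference at 16 h, with 0.21 (adjusted p = 1.0) without the third-number arrays, against -0.36 on all arrays, and the cause was not tested. The filter on dim probe sets removed Irf4, Irf8 and the dimmer Irf3 probe set, which have no value there.

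Groups of 2 or 3 arrays limit the precision, and Irf4, Irf8 and the dimmer Irf3 probe set were near or below the array median on most arrays. The counts of interferon-stimulated genes with peptide in B6g7 and in the strain difference at 16 h turned round without 1 array: at 16 h, 7 were higher and 34 lower in NOD on all arrays, and 26 higher and 15 lower without the third-number B6g7 peptide array.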

Other observations

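The third-number arrays differed from the other arrays of their groups in several members. Irf5 was lower on them in all 6 groups, with a median log2 difference of -0.20, and Irf3 in 5 of 6 groups, with a median of -0.40. Irf9 was higher on them in 4 of 6 groups (median 0.53, range -0.38 to 1.33), and Irf4 in 5 of 6 groups by a median of 0.10.

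The transgene difference of the interferon-stimulated list depended on these arrays too. In B6g7, BDC2.5 cells without peptide minus wild-type cells gave 26 of 41 genes higher (median 0.10), and 39 of 41 without the third-number arrays (median 0.55). In NOD it gave 9 of 41 higher (median -0.15), and 26 of 41 without those arrays (median 0.16). None of the 41 was called in either strain, with or without these arrays. Without them each wild-type group is 1 array.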
